A study of Mus musculus with 4 samples.

Results

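Origin licensing and firing factors are the proteins that load the replicative helicase onto DNA and then switch it on. The set comprised 10 mouse genes, Orc1, Orc6, Cdc6, Cdt1, Gmnn, Cdc45, Gins1, Gins2, Cdc7 and Dbf4, and its probes were found by matching the accession that each array probe carries to these genes. The match gave 17 of the 56605 probes on the array, 2 for each of 7 genes and 1 for each of Orc6, Cdt1 and Dbf4. RNA of isolated mouse pancreatic islets was profiled on single-colour Agilent expression arrays, 1 sample to an array. The labels do not say whether the samples of a group came from separate animals, so the p values measure only the spread between these samples. Between the Rb-deficient samples that spread may be technical. The wild-type samples differed in Y-linked and Xist signal, as given below, so they were not repeats of the same RNA. Rb-deficient islets (2 arrays) came from mice with genotype Pdx1-Cre:Rbf/f, in which Cre under the Pdx1 promoter recombines floxed alleles of the retinoblastoma gene. The islets labelled wild type (2 arrays) came from Pdx1-Cre mice, so the Cre transgene was shared by both groups and the groups differed in the floxed alleles. Pdx1-Cre acts in the whole pancreatic lineage, exocrine cells included, and not in macrophages or vessels of the islet. Age and sex were not given in the sources used here.

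Replication origins are licensed in G1, when the origin recognition complex, Cdc6 and Cdt1 load the Mcm2-7 helicase onto DNA in an inactive form. Geminin, the product of Gmnn, binds Cdt1 and blocks new loading once S phase has begun. Firing follows when the kinase Cdc7 with its activator Dbf4, together with cyclin-dependent kinases, lets Cdc45 and the GINS complex join the helicase. Many of these genes are textbook targets of the E2F transcription factors, which Rb binds and restrains, and mature islet cells divide rarely.

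Promoter sequences of 7 of the 10 genes were held in a RefSeq promoter table of the GRCm38.p6 build, each running from 250 bases before to 50 bases after a transcription start. They are shown for Cdt1 and Cdc7, which were higher on both Rb-deficient arrays and held a word of the E2F type, for Orc1 and Cdc6, which held a long E2F word but were not tested or overlapped between groups, and for Orc6, which was higher on both Rb-deficient arrays and held none. Each is printed 5′ to 3′ on the strand of the gene, with E2F words in capitals. The Cdt1 window lies at chr8:122567765-122568064, plus strand, the Cdc7 window at chr5:106964311-106964610, plus strand (the second of 2 starts in the table), the Orc1 window at chr4:108579204-108579503, plus strand, the Cdc6 window at chr11:98907901-98908200, plus strand, and the Orc6 window at chr8:85299382-85299681, plus strand.
Cdt1: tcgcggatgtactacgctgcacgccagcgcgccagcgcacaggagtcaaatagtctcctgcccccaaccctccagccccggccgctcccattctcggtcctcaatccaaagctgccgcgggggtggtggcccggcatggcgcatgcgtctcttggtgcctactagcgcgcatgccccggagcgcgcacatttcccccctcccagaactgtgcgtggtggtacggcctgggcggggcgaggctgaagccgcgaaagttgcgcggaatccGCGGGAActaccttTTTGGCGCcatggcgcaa
Cdc7: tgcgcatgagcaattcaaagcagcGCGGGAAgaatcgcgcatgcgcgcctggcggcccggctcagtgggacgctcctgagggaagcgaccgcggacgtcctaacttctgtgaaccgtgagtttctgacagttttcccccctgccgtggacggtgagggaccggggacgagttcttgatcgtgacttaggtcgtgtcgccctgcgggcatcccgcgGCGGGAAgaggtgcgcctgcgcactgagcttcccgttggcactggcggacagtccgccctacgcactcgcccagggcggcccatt
Orc1: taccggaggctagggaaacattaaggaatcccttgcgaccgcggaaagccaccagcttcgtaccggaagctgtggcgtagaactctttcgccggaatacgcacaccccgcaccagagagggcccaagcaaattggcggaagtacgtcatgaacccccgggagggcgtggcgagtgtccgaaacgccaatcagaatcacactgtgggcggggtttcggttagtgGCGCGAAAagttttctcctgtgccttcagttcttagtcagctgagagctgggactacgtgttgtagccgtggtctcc
Cdc6: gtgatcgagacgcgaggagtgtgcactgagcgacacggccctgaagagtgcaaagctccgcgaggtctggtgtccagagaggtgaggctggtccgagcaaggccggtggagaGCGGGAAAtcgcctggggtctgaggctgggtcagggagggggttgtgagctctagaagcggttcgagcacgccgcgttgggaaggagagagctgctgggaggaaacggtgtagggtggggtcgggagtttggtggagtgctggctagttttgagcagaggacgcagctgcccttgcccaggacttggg
Orc6: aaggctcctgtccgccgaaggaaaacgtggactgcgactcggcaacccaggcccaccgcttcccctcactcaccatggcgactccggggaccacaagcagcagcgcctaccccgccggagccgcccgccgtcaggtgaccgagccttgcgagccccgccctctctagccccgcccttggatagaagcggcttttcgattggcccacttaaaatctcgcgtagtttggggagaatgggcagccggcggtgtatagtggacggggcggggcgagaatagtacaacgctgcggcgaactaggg

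The long E2F words searched were TTTCCCGC, TTTGGCGC, TTTCGCGC and TTTGCCGC, and the short ones were the same words without their first T, so that each long word contains a short one. Both strands were searched. Of the 8 promoter windows of these 7 genes, 3 held a long word and 5 held a short one, whereas 2.26% and 9.57% of all 32851 promoter windows of the same length did. By gene, 3 of the 7 held a long word and 4 a short one. G and C made up 57.3% to 74.7% of these windows except that of Cdc45 (38.7%), against a median of 52.7% over all windows. The shares were not adjusted for this. The windows of Orc1, Cdc6 and Cdt1 held the long words, and those of Cdc7 the short word TTCCCGC. In Cdt1 the matches lay just after the transcription start, with the short word at bases 18 to 24 and the long word TTTGGCGC at bases 32 to 39, counted from 0 at the first transcribed base. In Orc1 the long word TTTCGCGC lay at bases -27 to -20 and in Cdc6 TTTCCCGC lay at -138 to -131. Both lay on the strand opposite to the gene, as did the TTCCCGC matches of Cdt1 and Cdc7. For these the capitals above show the reverse complement. In Cdc7 the word stood at -226 to -220 and again at -35 to -29 of the second start, and at 13 to 19 of the first start, which is the same place as the first of these. The windows of Orc6, Cdc45 and Dbf4 held no such word. The word CCAAT was present in the windows of Orc1, Orc6 and Cdc45 and in 37.4% of all windows, and the CHR word TTTGAA was present in those of Cdc45, Cdc7 and Dbf4 and in 17.9% of all windows. These are matches of letters and not measured binding sites.

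**Figure D1:**
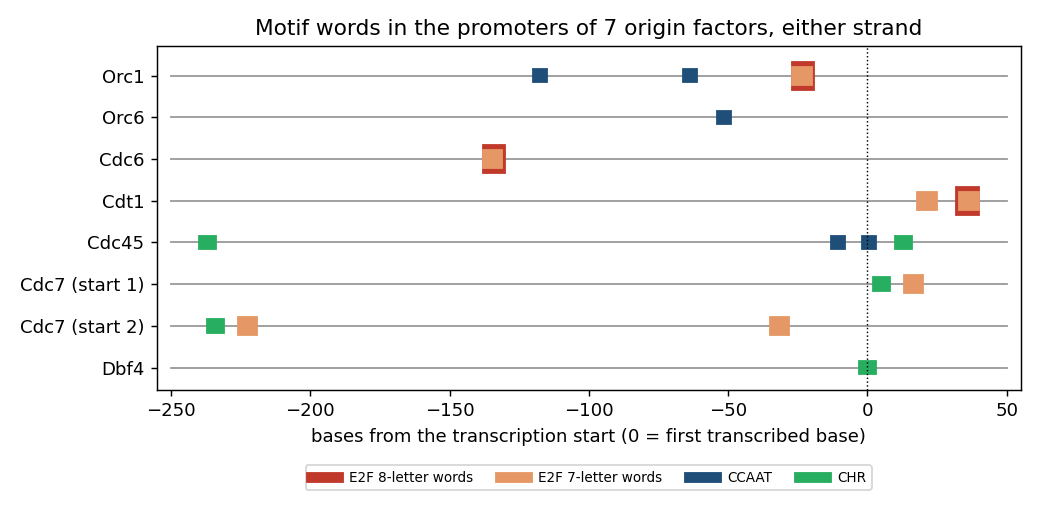
Motif words in the promoter windows of 7 origin factors, by distance in bases from the transcription start. Boxes mark long E2F words (red), short E2F words (orange), CCAAT (blue) and the CHR word (green). Red boxes are present in Orc1, Cdc6 and Cdt1, and Orc6 carries CCAAT alone.

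Signal is given throughout as log2 of the processed intensity minus the 75th percentile of the array's non-control spots, so that a value of 0 is the level that 75% of spots stay below. Because probes differ in binding, levels were compared between arrays for 1 probe and not between probes. The 75th percentile lay at 364 and 488 intensity units on the Rb-deficient arrays and at 361 and 411 on the wild-type arrays. Probes well above background made up 59.9% and 59.0% on the Rb-deficient arrays, against 76.5% on wild-type array 1 and 59.4% on wild-type array 2. Wild-type array 1 also stood apart by Y-linked transcripts, with signal above background for Eif2s3y, Kdm5d, Ddx3y and Uty on that array and on no other, and by Xist at background. Xist was above background on wild-type array 2 and on both Rb-deficient arrays. The wild-type group was thus mixed in these sex-linked transcripts, and the Rb-deficient group was not. What part this had in the group differences was not tested. None of the origin factors lies on a sex chromosome. All 10 beta cell markers tested for the tissue label, the insulin genes among them, were well above background on every array, and so were all 10 acinar and all 10 macrophage markers. In bulk islet RNA, fewer cells of a kind and less RNA per cell cannot be told apart.

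Of the origin factors, Cdt1 and Gins1 had the largest differences, each nearly 4-fold higher in Rb-deficient islets, followed at 1.62-fold to 1.79-fold by Gins2, Cdc7, Gmnn and Orc6. Cdc6 differed little, Cdc45 and Dbf4 were slightly lower in mean but higher when arrays were scaled by their medians, and each Orc1 probe was above background on 1 array only. With 2 arrays per group no single gene passed the test. To enter the test, a probe had to exceed background clearly on each array of 1 group or of both, and the brightest such probe stood for its gene. This kept 9 of the 10 genes, all but Orc1, and each of the 9 was above background on all 4 arrays. Of the 9 genes, 7 were higher in mean in Rb-deficient islets and 2 lower, where 41.9% of all 26378 genes tested were higher. For 5 of the 9, both Rb-deficient arrays lay above both wild-type arrays, which held for 15.3% of all genes tested, and for none did both lie below, which held for 20.7%. The 5 were Cdt1, Gins1, Gins2, Cdc7 and Orc6. The limma fit, adjusted by Benjamini-Hochberg across all genes, called 0 of the 9 and 0% of all genes, the 9 having adjusted p values from 0.613 to 0.962. At an unadjusted p under 0.05 there were 4 of the 9, all higher, where 5.66% of all genes passed in either direction and 1.48% were higher. A difference of at least 2-fold upward was seen for 2 of the 9, against 1.7% of all genes. The median log2 difference was 0.73 over the 9 genes and -0.07 over all genes tested. With each array scaled by its median instead, the median of all genes moved to 0.37, so most genes were higher in mean. The 9 genes were all higher in mean in that setting. For 6 of the 9 the groups did not overlap upward, where this held for 30.5% of all genes. With this scaling limma called Cdt1 at 2.41 and Gins1 at 2.40 (adjusted p 0.00133 and 0.00150) among 480 of 26378 genes. In that fit the prior degrees of freedom were infinite, so every gene had the same standard error of 0.55, and these p values rest on 1 pooled variance and not on the spread of each gene.

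**Figure D2:**
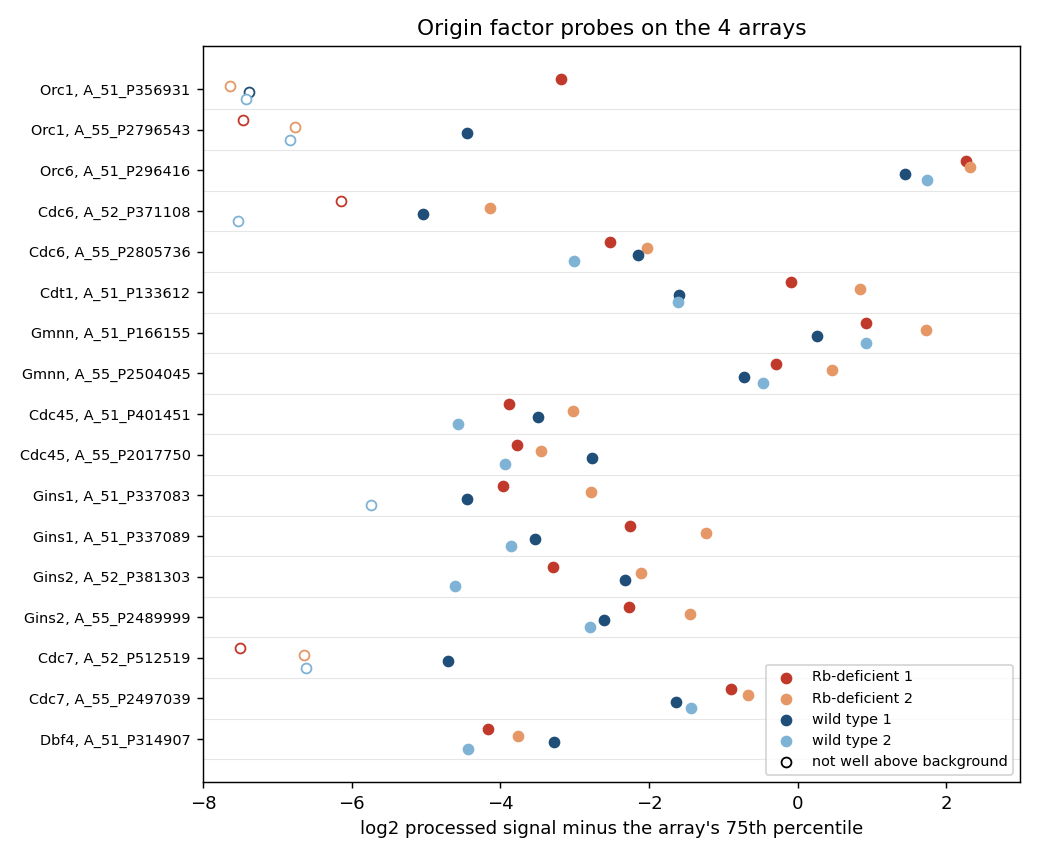
Scaled log2 signal (horizontal axis, log2 intensity minus the array's 75th percentile) of the 17 origin factor probes on the Rb-deficient arrays (red, orange) and the wild-type arrays (dark and light blue). Open circles were not well above background. Cdt1 and the brighter Gins1 probe show both Rb-deficient arrays to the right of both wild-type arrays, and the Orc1 probes each have signal on 1 array.

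The origin recognition complex marks the sites of replication start, and Orc1 and Orc6 are its largest and smallest subunits. Orc6 had a signal of 2.26 and 2.32 on the Rb-deficient arrays, against 1.45 and 1.74 on the wild-type arrays. Both Rb-deficient values lay above both wild-type values, and the Rb-deficient arrays differed less from each other than the wild-type arrays did. On the log2 scale the groups differed by 0.70 (standard error 0.20), or 1.62-fold (limma, adjusted p 0.807). Orc1 could not be measured reliably. Its probe A_51_P356931 read -3.19 and -7.64 on the Rb-deficient arrays, against -7.39 and -7.43 on the wild-type arrays, and only Rb-deficient array 1 was above background. Its other probe, A_55_P2796543, read -7.46 and -6.76 on the Rb-deficient arrays, against -4.45 and -6.83 on the wild-type arrays, and here only wild-type array 1 was above background. The probes thus had signal on different arrays and gave opposite signs, and no fold change or bound is given for Orc1. The other core subunits, chosen after their values were seen apart from Orc4, differed less than Orc6, by 0.39 for Orc2, 0.17 for Orc3, 0.11 for Orc5 and 0.07 for Orc4 on the log2 scale. Scaling by a constant per array cannot move the ratio of Orc6 to Orc2, in which the Rb-deficient arrays stood 0.31 log2 units higher in mean. The log2 ratio was 2.02 and 1.76 on the Rb-deficient arrays, against 1.46 and 1.70 on the wild-type arrays, so the groups almost met. An exact two-sided permutation test of this ratio gave p = 0.333, the smallest that 2 against 2 arrays allow.

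Cdc6 and Cdt1 bring the helicase to the origin. Cdt1 had a signal of -0.09 and 0.84 on the Rb-deficient arrays, against -1.59 and -1.61 on the wild-type arrays. The wild-type arrays were almost equal, and both Rb-deficient arrays were higher, array 2 more so. The group means were 0.37 ± 0.66 in Rb-deficient islets and -1.60 ± 0.01 in wild-type islets (SD, n = 2 each). The log2 difference of 1.97 had a standard error of 0.38 and equals 3.93-fold, with an unadjusted p of 0.00726 and an adjusted p of 0.613 in limma. Only 0.349% of all genes tested had a larger upward difference. Cdc6, by contrast, had signals of -2.52 and -2.03 on the Rb-deficient arrays, against -2.15 and -3.01 on the wild-type arrays, in the brighter of its probes. The groups overlapped, and the log2 difference of 0.30 was smaller than its standard error of 0.40 (limma, adjusted p 0.878). The other Cdc6 probe was above background on 1 array of each group, Rb-deficient array 2 at -4.15 and wild-type array 1 at -5.04. Without wild-type array 1 the difference of Cdc6 was 0.73, and without wild-type array 2 it was -0.12.

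Geminin is the inhibitor of Cdt1, present from S phase to mitosis. Gmnn read 0.92 and 1.72 on the Rb-deficient arrays, against 0.26 and 0.92 on the wild-type arrays. Rb-deficient array 1 and wild-type array 2 were level, so the groups met, with wild-type array 2 higher beyond the second decimal. Its log2 difference was 0.73 with a standard error of 0.41, or 1.66-fold (limma, adjusted p 0.863). It was 0.33 without Rb-deficient array 2, 1.13 without Rb-deficient array 1 and 0.40 without wild-type array 1. A second probe gave a nearly equal difference of 0.68, with -0.29 and 0.46 on the Rb-deficient arrays, against -0.72 and -0.46 on the wild-type arrays, and there the groups did not overlap. Cdt1 differed more between groups than its inhibitor did. The log2 ratio of the Cdt1 signal to the Gmnn signal was -1.01 and -0.88 on the Rb-deficient arrays, against -1.85 and -2.53 on the wild-type arrays. Its level depends on the probes, but its difference between groups, 1.25 log2 units, is not moved by scaling with a constant per array. An exact two-sided permutation test gave p = 0.333, the smallest that 2 against 2 arrays allow.

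Cdc7 is the catalytic subunit of the kinase that phosphorylates the loaded helicase, and Dbf4 is the subunit that activates it. Cdc7 had signals of -0.90 and -0.67 on the Rb-deficient arrays, against -1.63 and -1.43 on the wild-type arrays. Both groups were tight and did not overlap, with a log2 difference of 0.75, a standard error of 0.20 and 1.68-fold higher signal (limma, unadjusted p 0.0231, adjusted p 0.790). A dim second Cdc7 probe, at -7.51 and -6.65 on the Rb-deficient arrays and at -4.71 and -6.62 on the wild-type arrays, was above background on wild-type array 1 only and was not tested. The probes of Cdc7 were matched to different transcripts of the gene. Dbf4 read -4.17 and -3.77 on the Rb-deficient arrays, against -3.28 and -4.43 on the wild-type arrays. The wild-type arrays enclosed both Rb-deficient arrays, and the log2 difference was -0.11 with a standard error of 0.47 (limma, adjusted p 0.962). The difference of Dbf4 was 0.46 without wild-type array 1 and -0.69 without wild-type array 2. The log2 ratio of Cdc7 to Dbf4 averaged 3.18 ± 0.12 on the Rb-deficient arrays and 2.32 ± 0.96 on the wild-type arrays (SD, n = 2 each), so that the wild-type arrays differed in it by more than the groups did.

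Cdc45 and the 4-subunit GINS complex turn the loaded helicase into the active one. Gins1 had signals of -2.25 and -1.23 on the Rb-deficient arrays, against -3.54 and -3.86 on the wild-type arrays. Both Rb-deficient arrays lay well above both wild-type arrays. On the log2 scale the groups differed by 1.96 (standard error 0.43), or 3.88-fold (limma, unadjusted p 0.0111, adjusted p 0.686). With normexp background correction the difference of Gins1 was 0.97. A second Gins1 probe, matched to another transcript, read -3.97 and -2.79 on the Rb-deficient arrays, against -4.45 and -5.74 on the wild-type arrays, of which only array 1 was above background. It passed the filter through the Rb-deficient group alone, and its difference of 1.72 was 1.47 with wild-type array 2 set to the lowest signal well above background there, and 1.07 against wild-type array 1 alone. Gins2 read -2.26 and -1.44 on the Rb-deficient arrays, against -2.60 and -2.79 on the wild-type arrays, a difference of 0.84 with a standard error of 0.35 and 1.79-fold (limma, adjusted p 0.863). Its groups did not overlap either, and the difference was 0.43 without Rb-deficient array 2 and 0.54 with normexp. The other Gins2 probe differed by 0.77 but its groups overlapped, with -3.29 and -2.11 on the Rb-deficient arrays, against -2.32 and -4.61 on the wild-type arrays. The remaining subunits differed less, Gins3 by -0.10 and Gins4, chosen after its values were seen, by 0.34. The log2 difference of Gins1 exceeded that of Gins3 by 2.06 log2 units and that of Gins2 by 1.12, in ratios that did not overlap between groups, and the exact two-sided permutation p was 0.333 for each, the smallest possible.

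Cdc45 was the member whose probes disagreed most among those tested. Its brighter probe, A_55_P2017750, read -3.78 and -3.46 on the Rb-deficient arrays, against -2.76 and -3.94 on the wild-type arrays, a log2 difference of -0.27 with a standard error of 0.47 (limma, adjusted p 0.903). The other, A_51_P401451, read -3.88 and -3.02 on the Rb-deficient arrays, against -3.49 and -4.57 on the wild-type arrays, a difference of 0.58. In both probes wild-type array 1 was the higher wild-type array, by 1.18 and 1.07, and both had overlapping groups. Without wild-type array 1 the difference of the brighter probe was 0.32, and without wild-type array 2 it was -0.86. No direction is therefore given for Cdc45, nor for Dbf4.

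**Figure D3:**
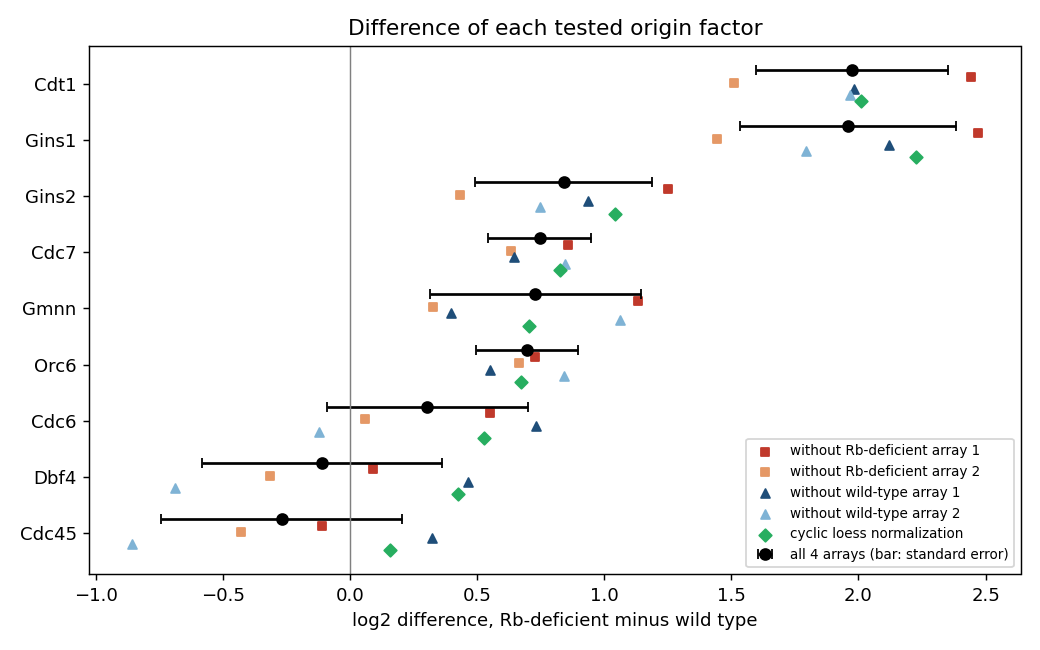
Log2 difference (Rb-deficient minus wild type) of the 9 tested origin factors, with standard errors, and the same value with 1 array left out or after cyclic loess normalization. Cdt1 and Gins1 lie clear of 0 in every setting drawn, the lowest points being 1.51 and 1.44, and Cdc6, Dbf4 and Cdc45 have points on both sides of 0.

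Of the 4 members whose groups overlapped 3 were dim, and dim probes differed between the wild-type arrays in general. Among the 3599 genes tested with a mean level between -4 and -3, the median of wild-type array 1 minus wild-type array 2 was 0.48, and the median difference between groups was -0.39. Cdc45 and Dbf4 fall in this range. The corresponding values were 0.28 and -0.23 for the 3106 genes between -3 and -2, where Cdc6, Gins1 and Gins2 fall. For the 2476 genes between 1 and 2, where Orc6 falls, they were -0.06 and 0.06. Wild-type array 1 exceeded wild-type array 2 by 1.18 for Cdc45, 1.15 for Dbf4 and 0.86 for Cdc6, more than the median of genes at their level. For Gins1, Gins2 and Cdt1 it differed by 0.32, 0.19 and 0.02. What part this had in the differences of single members was not tested. Compared with wild-type array 2 alone, both Rb-deficient arrays were higher for 8 of the 9 genes, all but Gmnn, where this held for 27.9% of all genes tested. Compared with wild-type array 1 alone, they were higher for 6 and lower for 2, Cdc45 and Dbf4, where 28.8% of all genes were higher. The share of all genes that were lower was not counted, so the 2 lower members have no background to be read against.

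**Figure D4:**
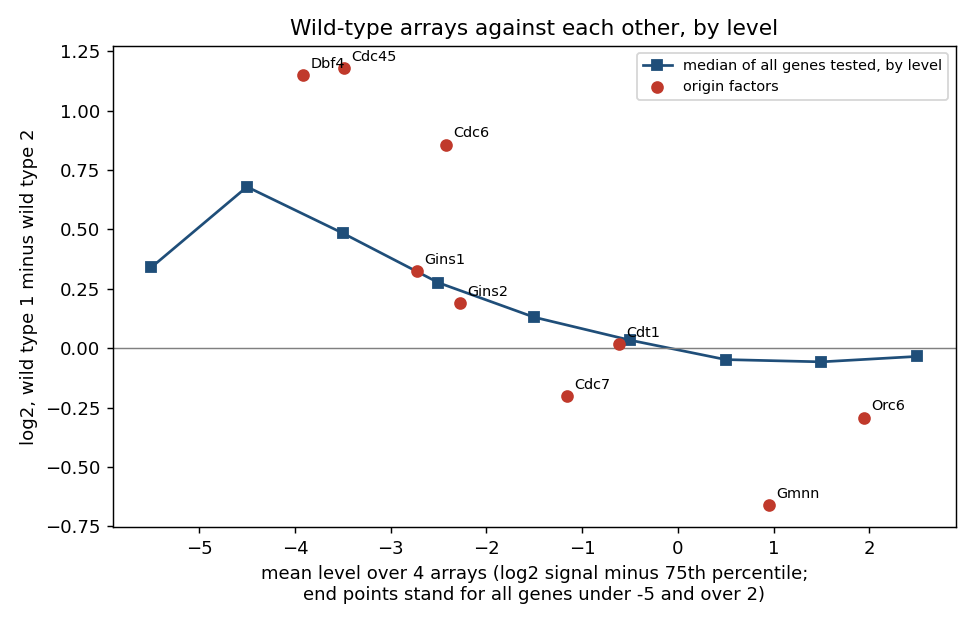
Log2 difference between the wild-type arrays (array 1 minus array 2) against the mean level over the 4 arrays, for the 9 tested origin factors (red) and as the median of all genes tested in bins of level (blue). The blue line lies above 0 at low levels and near 0 at high levels, and Dbf4, Cdc45 and Cdc6 lie above it.

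The Rb-deficient arrays also differed from each other. Rb-deficient array 2 was higher than array 1 for all 9 tested genes, and the median distance from the wild-type mean was 0.43 on array 1 and 0.86 on array 2. The share of all genes for which array 2 was higher is not given. Over all genes tested the median distance was -0.02 on array 1 and -0.09 on array 2. Gins1 and Cdt1 had the widest gaps, with 1.03 and 0.93 log2 units between the arrays, and Orc6 the narrowest with 0.06. The median difference of the 9 genes was 0.43 without Rb-deficient array 2 and 0.86 without array 1. The 10 macrophage markers, genes of cells in which Pdx1-Cre is not active, were all higher in mean in Rb-deficient islets, 0 were called, and their median lay 0.35 and 1.39 above the wild-type mean on Rb-deficient arrays 1 and 2. Their summed signal, in multiples of the 75th percentile, was 12.5 to 19.9 on the Rb-deficient arrays, against 10.3 to 11.1 on the wild-type arrays. Stromal, endothelial, lymphocyte and red cell precursor markers also had higher median distances on Rb-deficient array 2. On arrays 1 and 2 these were -0.45 and 0.57, 0.01 and 0.38, -0.14 and 0.16, and -0.22 and 0.92. Beta cell (0.14 and -0.08), ductal (-0.53 and -0.61) and acinar markers had lower median distances on array 2. The 10 acinar markers were all lower in mean, 8 of 10 with scaling by array medians, and 0 were called, with a median of -0.32 and -1.13 on Rb-deficient arrays 1 and 2 and a summed signal of 3218 to 5513 on the Rb-deficient arrays, against 5968 to 7246 on the wild-type arrays. The beta cell markers differed by 0.11 in median, and by -0.07 and -0.08 without wild-type array 1 and without Rb-deficient array 1. Of the 6 ductal markers 5 were lower in mean, with a median of -0.80 and 0 called. The ductal median was -0.34 with normexp, -0.31 with quantile normalization and -0.36 with scaling by array medians. It was -0.47 without wild-type array 1 and -0.53 without Rb-deficient array 2. With quantile normalization or median scaling 2 of the 6 were higher. The summed signal of the ductal markers was 10.6 and 14.3 on the Rb-deficient arrays, against 20.2 and 13.8 on the wild-type arrays. Groups did not overlap for 3 of the 6 ductal and 7 of the 10 acinar markers, all lower, where 20.7% of all genes did so. For macrophage markers they did not overlap in 5 of 10, all higher, where 15.3% of all genes did so. Among 4 other islet hormone genes the median was -0.10, but -0.61 without Rb-deficient array 2 and 0.54 without Rb-deficient array 1. Gcg, the glucagon gene of alpha cells, chosen after its values were seen, differed by -0.78 (limma, adjusted p 0.863). It read 9.26 and 7.96 on the Rb-deficient arrays, against 9.34 and 9.44 on the wild-type arrays. Most of the Gcg difference thus came from Rb-deficient array 2. Ppy and Pyy were instead higher on that array, with 6.30 and 9.28, and 5.70 and 8.64, on Rb-deficient arrays 1 and 2. The part of macrophage, acinar, ductal or alpha cell content in the values of the origin factors was not tested.

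The rest of the licensing and firing pathway was described from lists of other genes. Among 14 other licensing factors, which load or hold the helicase, 13 were higher and 1 lower in mean, 11 did not overlap upward and 0 were called by limma, with 7 at an unadjusted p under 0.05, all higher. Over all genes tested 41.9% were higher in mean, 15.3% did not overlap upward and 1.48% were higher at that p. The median difference of these licensing factors was 0.52. Mcm3 and Mcm6, helicase subunits, led with 2.77 and 2.50, and Orc4 and Noc3l, a factor first tied to pre-replicative complexes in yeast, were last with 0.07 and -0.05. Among the 16 other firing factors tested of 18, 12 were higher and 4 lower, 11 did not overlap upward and 0 were called, with 6 at an unadjusted p under 0.05, all higher, against the same shares of all genes. Their median was 0.58, and 0.36 without Rb-deficient array 2. Pole, the catalytic subunit of DNA polymerase epsilon, was higher by 1.97 and Ccna2, cyclin A2, by 1.50, while Gins3 and Recql4, a helicase of the RecQ family, stood at -0.10 and -0.17. The order of the medians of these lists and of the origin factors depended on 1 array, since without Rb-deficient array 2 the origin factors stood at 0.43 and the other licensing factors at 0.50.

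Cdt1, Cdc6 and geminin are also controlled by protein turnover, which an expression array does not show. Of 12 regulators of turnover 11 were higher in mean with a median of 0.17, 6 did not overlap upward, 0 were called and 2, Cdc20 and Skp2, had an unadjusted p under 0.05, both higher, where 15.3% of all genes did not overlap upward and 1.48% were higher at that p. The median was 0.27 without wild-type array 1 and 0.11 without wild-type array 2. Of the 12 genes 2, Dtl and Skp2, passed the filter through the Rb-deficient group alone. Dtl, the adaptor through which the Cul4 ligase recognises Cdt1 in S phase, was above background on 1 of 2 wild-type arrays and differed by 1.81, or by 1.75 with the other array set to its lowest signal well above background, and Cdc20, an activator of the anaphase-promoting complex, by 1.50. Skp2, another ligase adaptor for Cdt1, chosen after its values were seen, was not well above background on either wild-type array. It was at least 2.54-fold higher in mean in Rb-deficient islets. Its fit (limma, adjusted p 0.661) used wild-type readings not above background. Such a bound sets the Rb-deficient mean against the wild-type mean of the lowest signal well above background on each array, or of the probe's own signal where that is higher. The cullins Cul1 and Cul4b stood at 0.02 and -0.04.

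Rb1, the floxed gene, had a signal of -0.48 and -0.90 on the Rb-deficient arrays, against 0.28 and 0.86 on the wild-type arrays, 2.40-fold lower without overlap (limma, adjusted p 0.735). Its second probe was 2.94-fold lower. Whether either probe lies in the floxed part is not known here. Among the 12 tested genes of the Rb and E2F list, 8 were higher and 4 lower with a median of 0.13, and 0 were called. That median was 0.02 without Rb-deficient array 2, 0.27 without Rb-deficient array 1, 0.06 without wild-type array 1 and 0.28 with quantile normalization, so no shift of the list is given. The repressor E2f8 was not well above background on either wild-type array. It was at least 3.55-fold higher in mean in Rb-deficient islets. The E2f8 fit (limma, adjusted p 0.743) used those wild-type readings. The activator E2f1 was higher in mean by 1.02, and Tfdp2, a dimer partner of E2F proteins, stood at -0.15. All 8 proliferation markers were higher without overlap, which held for 15.3% of all genes, with a median of 1.87. Cdk1 was above background on 1 of 2 wild-type arrays and differed by 2.48, or by 2.25 with the other array set to its lowest signal well above background, and Top2a differed by 2.33. The lowest were the replication clamp gene Pcna at 1.10 and Rrm2, a ribonucleotide reductase subunit, at 0.50. Of the 8 markers 0 were called, with 7 at an unadjusted p under 0.05, Cdk1 among them, all higher, where 1.48% of all genes were. Cdk1 passed the filter through the Rb-deficient group alone, and its fit used a wild-type reading not above background.

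**Figure D5:**
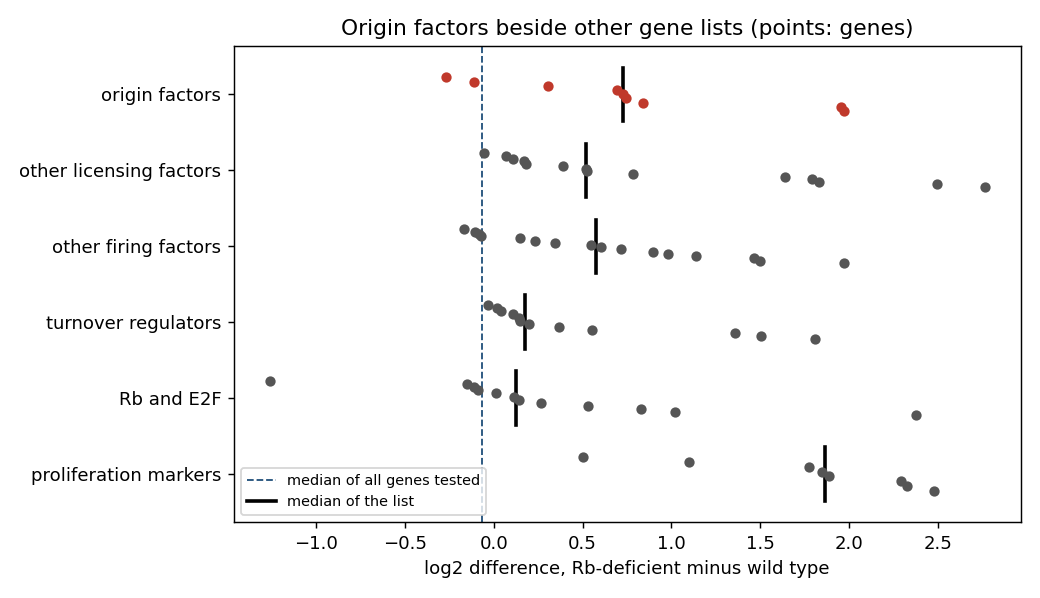
Log2 difference (Rb-deficient minus wild type) of each tested gene, for the origin factors (red) and 5 other lists (grey), with the median of each list (black bar) and of all genes tested (dashed line). The origin factors spread from -0.27 to 1.97 around a median of 0.73, and the proliferation markers have the highest median, 1.87.

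Over the 13 probes of the set that passed the filter, tested one by one among 33845 probes, 11 were higher in mean, and 7 had no overlap upward, where this held for 14.8% of all probes. The 7 include the dimmer Gins1 probe, which passed the filter through the Rb-deficient group alone. In limma 0 of the 13 were called, as was 0% of all probes, with adjusted p values from 0.626 to 0.964, and 4 had an unadjusted p under 0.05, all higher, where 5.6% of all probes passed in either direction and 1.43% were higher. Both probes of Gmnn, of Gins1 and of Gins2 had differences of the same sign, whereas those of Cdc45 had opposite signs. Probes of 1 gene share the sample and are not replicates.

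Other genes followed the same pattern over the 4 arrays. The median profile of the 9 genes, each centred on its own mean, was 0.01 and 0.49 on the Rb-deficient arrays, against -0.47 and -0.52 on the wild-type arrays. Cdc7, Gins2 and Orc6 were the members closest to it, with Euclidean distances of 0.35, 0.37 and 0.45, and Cdc45, Gins1 and Cdt1 the farthest at 1.32, 1.31 and 1.30. The 6 nearest genes outside the set among those tested were Fcer1g, Atad5, Map7d2, Rfc5, Trip13 and Tyms, at distances of 0.25 to 0.26. Rfc5 encodes a part of the clamp loader and Atad5 a part of a related complex. Tyms encodes the enzyme that makes thymidylate and Trip13 an ATPase of the spindle checkpoint. Fcer1g encodes a signalling chain of immune receptors and Map7d2 a microtubule-binding protein. The 6 genes were 1.63-fold to 1.72-fold higher, and none was called by limma (adjusted p 0.815 to 0.863). With 4 arrays such likeness is a description only.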

How the data were processed

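Islet RNA of 4 samples was measured on Agilent single-colour arrays of 1 slide. The deposited scanner files hold intensity values that, per the file headers, came from Agilent Feature Extraction 12.0.3.1, with the processed intensity background-subtracted and not scaled between arrays. Groups and replicate numbers were taken from sample titles. Nothing in the labels says that a number marks a shared litter or day, so the replicate number was left out of the comparison. With 1 slide for all arrays, no block by slide could be made.

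Log2 processed intensity was centred on each array's 75th percentile of non-control spots, then outlier spots (64 to 93 per array) were left out, and spots of a probe were averaged. Accessions were matched without version to the RefSeq gene table of GRCm38.p6, which named 32994 of 56605 probes. Of the probes 33845 passed the background filter, for 26378 genes, of which 15823 had a symbol and the others were kept under the identifier of the array. Groups were compared with limma 3.58.1 (R 4.3.3; lmFit, eBayes, two-sided, Benjamini-Hochberg over all genes, threshold 0.05), with 2 residual degrees of freedom and 1.82 of prior. The number of arrays limits the precision. A gene kept its probe in every alternative except those on the filter and on the probe rule.

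The members and lists were chosen with earlier results of these data known. The files hold no mean signal, so normexp used the median signal. Named genes were the members, Rb1, the 2 highest and 2 lowest of each list by difference, and the 6 genes nearest to the members' median profile by Euclidean distance. The promoter search was added after the values were seen. The deposited value table holds intensity equal to the processed signal times a constant per array (2.49 and 1.74 for the Rb-deficient arrays, 2.44 and 2.15 for the wild-type arrays), with column medians of 188, 157, 220 and 181. Its scale is linear without centring, and how the constants were set stays unknown. It served as an alternative. The fit was tested on simulated data.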

Additional observations from a re-analysis of the deposited data

How the results depend on the processing

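Scaling each array by its median, where the 75th percentile was used otherwise, made calls. It moved the median difference of all genes to 0.37, and limma called 480 of 26378 genes, 234 of them higher. Among the 480 were 2 of the 9 origin factors tested, Cdt1 at 2.41 and Gins1 at 2.40. Every other setting gave 0 calls among all genes and among the members. The members' median minus that of all genes was 0.80 with either scaling, since a constant per array cannot move it. It was 0.64 with normexp and 0.68 with quantile normalization and with cyclic loess. With 1 array left out it ranged from 0.45 (without Rb-deficient array 2) to 0.96 (without wild-type array 2). The members' median ranged from 0.43 to 0.86 when 1 array was left out. Among the members, signs turned for Cdc6, Cdc45 and Dbf4 only. Cdc6 ranged from -0.12 to 0.73, Cdc45 from -0.86 to 0.32 and Dbf4 from -0.69 to 0.46 when 1 array was left out (Dbf4 0.09 without Rb-deficient array 1). Cdc45 was 0.13 with quantile normalization, 0.17 with median scaling, 0.16 with its probes averaged and 0.16 with cyclic loess, which was added after the data were seen. Dbf4 was 0.41, 0.33 and 0.42 with quantile normalization, median scaling and cyclic loess. With normexp background correction Gins1 was 0.97, Cdt1 1.48, and the medians of the other firing factors and the proliferation markers 0.31 and 1.15. With the replicate number as a block the members' median was 0.73, as without it, and 0 members and 0 genes were called (lowest adjusted p 0.304 over all genes). The deviations of same-numbered arrays from their group means correlated at 0.295 across genes, which are not independent, and the labels give no pairing. The causes were not tested. Low signal limits what can be said of Orc1, Cdc45 and Dbf4, and of Gins1, which read -3.54 and -3.86 on the wild-type arrays.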
